A study of Drosophila melanogaster with 2 samples.

Results

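The translation initiation and elongation factor genes of Drosophila melanogaster were taken as all protein-coding genes whose symbol begins with eIF or eEF in Ensembl release 115. This gave 52 genes of 13945 protein-coding genes on the chromosome arms, 44 of them for initiation and 8 for elongation. A gene was called bound where the summit (the point of highest signal) of a region in the stringent region list lay in the gene or within 2 kb of it. By that rule 20 of the 52 factor genes (38.5%) were bound, beside a background of 24.9% of all genes. No threshold on a measured value chose the 52 genes.

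Initiation factors bring the small ribosomal subunit, the initiator tRNA and the capped messenger RNA together at the start codon. The cap-binding complex eIF4 and the large scaffold eIF3 load the messenger, eIF2 delivers the initiator tRNA as a GTP complex that eIF2B recharges, and eIF5B joins the large subunit. Elongation factors then deliver each aminoacyl-tRNA and move the ribosome along, and most of these genes are active in nearly all dividing and growing cells.

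Chromatin immunoprecipitation with an antibody against GFP, followed by sequencing (ChIP-seq), was performed on whole embryos of both sexes at 0 to 24 h of development. All embryos came from 1 transgenic strain that stably expresses the brain-specific homeobox protein Bsh with GFP at its C-terminal end (bsh-GFP). There was 1 group, with 2 biological replicates and no second condition, and the labels do not say which cells express the fusion protein. A possible control experiment named in the labels was not analysed here, so the signal at these genes without the fusion protein was not measured.

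The stringent list held 4447 regions on genome build dm6 that the submitters kept by their irreproducible discovery rate (IDR), which scores whether a region keeps its rank from replicate to replicate. Every one of its regions carried the same −log10 q value, and the list equalled the strongest 4447 regions of the relaxed pooled list, so regions were ordered by the authors' signal value, from 119.6 to 2129.8 with a median of 182.7. Relaxed lists of 30000 regions each, made for the pooled reads and for each replicate, also hold background. Signal was compared only within a list, and the strongest 4447 regions of each replicate stood beside the IDR list. No read numbers accompany the regions, and the depth behind a signal value is therefore unknown. In whole embryos, binding in more cells and stronger binding per cell cannot be told apart.

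An IDR summit lay within 100 bp of a start site of the gene itself at the 4 factor genes shown here, and the promoters under these summits are printed from RefSeq's Release 6 genome, 5′ to 3′ on the gene's strand. Each run ends with the first 30 bases of the transcript. Capitals mark the words searched in the promoters, described with their counts later.
eEF1gamma, chr3R:29220052-29220201, plus strand: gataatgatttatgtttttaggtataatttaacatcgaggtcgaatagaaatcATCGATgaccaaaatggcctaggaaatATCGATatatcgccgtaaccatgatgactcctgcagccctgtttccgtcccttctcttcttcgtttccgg
eIF4H1, chrX:16449032-16449181, plus strand: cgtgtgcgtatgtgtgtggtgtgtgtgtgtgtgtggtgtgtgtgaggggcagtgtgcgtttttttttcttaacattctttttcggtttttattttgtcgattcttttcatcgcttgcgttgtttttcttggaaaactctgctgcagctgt
eIF4E1, chr3L:9401776-9401916, minus strand: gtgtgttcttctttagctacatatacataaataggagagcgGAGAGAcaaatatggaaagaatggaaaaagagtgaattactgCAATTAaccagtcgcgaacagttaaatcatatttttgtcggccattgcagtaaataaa
eIF3a, chr3R:4433866-4433964, minus strand: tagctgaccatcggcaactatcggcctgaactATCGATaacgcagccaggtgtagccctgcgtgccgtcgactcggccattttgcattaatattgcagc
Counting the first transcribed base as 0, the summit lay 8 bases inside eEF1gamma, 29 bases inside eIF3a, 77 bases before the eIF4E1 start and 49 bases before the second eIF4H1 start. ATCGAT, the core of the DNA replication-related element, began 67 and 40 bases before the start of eEF1gamma and 37 bases before that of eIF3a. In eIF4E1 the GAGA-factor word began 70 bases and the homeodomain word CAATTA 28 bases before the start, whereas none of the searched words occurred in the printed eIF4H1 run.

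Among the strongest 4447 regions, 16 factor genes (30.8%) were bound in replicate 1, beside 24.7% of all genes. Replicate 2 had 24 bound factor genes (46.2%), beside 26% of all genes. The mean share was 38.5% ± 10.9 (SD, n = 2) for factor genes and 25.4% ± 0.872 (SD, n = 2) for all genes. Both replicates put the factor genes above the background, by 6.02 percentage points in replicate 1 and 20.2 in replicate 2, a mean of 13.1 ± 10.0 points (SD, n = 2). That SD is nearly as large as the mean, so the size of the difference is poorly fixed by these replicates. Bound in both were 15 factor genes, while 27 were bound in neither. The same counts over all genes are not given here, so whether this agreement is usual cannot be said. Replicate 1 alone held eEF1alpha1, and replicate 2 alone held 9 genes, eEF2, eIF2Bgamma, eIF4E1, eIF3l, eIF3a, eIF1A, eIF3d1, eIF2D and eIF3g1.

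**Figure D1:**
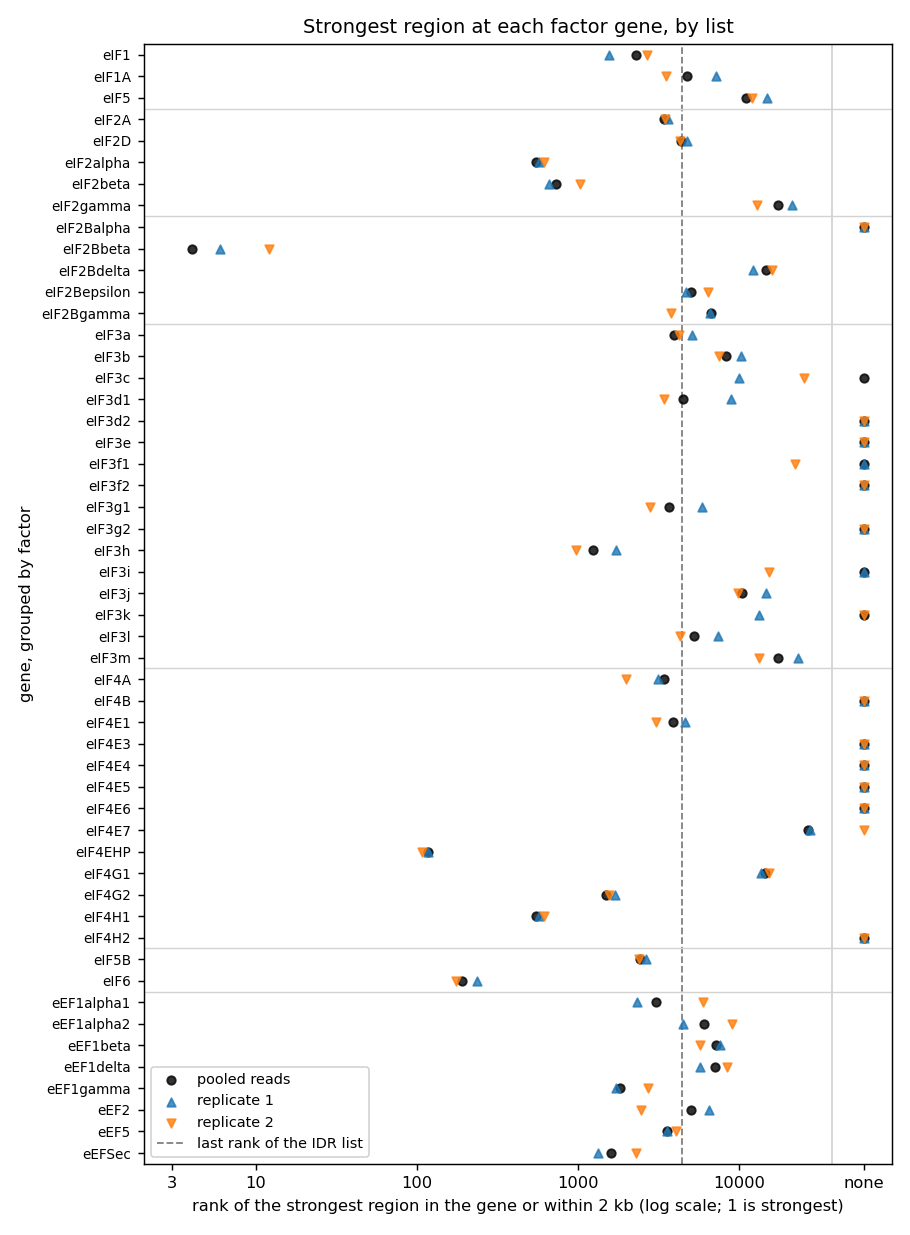
Rank of the strongest region in each of the 52 factor genes or within 2 kb, on a log axis where 1 is strongest, in the pooled list (circles) and in replicate 1 and replicate 2 (triangles). The dashed line marks rank 4447, the last of the IDR list, and genes with no region in a list stand at "none"; eIF2Bbeta at rank 4 and eIF4EHP at rank 117 stand far to the left, and 11 genes have no region in any list.

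The difference from the background depended on distance. Inside the gene body 10 factor genes (19.2%) held an IDR summit, beside 11.6% of all genes. With the reach widened to 5 kb the same 20 factor genes (38.5%) were bound, beside 36.2% of all genes, and the difference shrank to 2.24 percentage points. Factor genes thus gained no member between 2 and 5 kb, where many other genes did. With a summit counted only for the gene whose start site is nearest, 11 factor genes (21.2%) were bound, beside 17.2%. Within 500 bp of an own start site 14 factor genes (26.9%) had a summit, beside 12.1% of all genes. That promoter share was 19.2% in replicate 1 and 23.1% in replicate 2, a mean of 21.2% ± 2.72 (SD, n = 2), beside 12.4% ± 0.573 for all genes. On this share the replicates lay closer together than on the share within 2 kb.

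The shares were set against gene length, since a long gene offers more room for a summit. Factor genes were short, with a median of 1955 bp beside 2166 bp over all genes. Under 2 kb, 11 of 28 factor genes (39.3%) were bound, beside 15.2% of all genes of that length. From 2 to 5 kb the count was 5 of 16 (31.2%), beside 23.7%, and at 5 kb or longer it was 4 of 8 (50%), beside 44.3%. The gap was therefore widest among the short genes. Factor genes also had a start site of the opposite strand within 500 bp more often than all genes (38.5% against 27.8%). Where such a divergent neighbour was present 8 of 20 factor genes (40%) were bound, beside 32.4% of all such genes, and without one 12 of 32 (37.5%) were bound, beside 22%.

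Counted down the pooled list, 3 factor genes (5.77%) were reached by the strongest 500 regions, beside 4.74% of all genes. At 2000 regions there were 10 (19.2%), beside 14.0%, and at 3000 there were 12 (23.1%), beside 18.9%. Between rank 3000 and rank 4447 the count went from 12 to 20. It then reached 30 (57.7%) at 8894 regions, beside 39.8%, and 37 (71.2%) in the whole relaxed pooled list, beside 59.8%. In the pooled list the factor genes therefore stood apart mainly through regions of moderate to low rank. The replicates differed here. Replicate 2 went from 28.8% at 3000 regions to 46.2% at 4447, beside 19.3% and 26.0% of all genes. Replicate 1 went from 25% to 30.8%, beside 18.6% and 24.7%, and reached 44.2% at 6000, beside 30.9%. The median highest signal of the 20 bound factor genes, 191.7, was below the 214.1 of all 3470 bound genes. The quartiles were 140.5 and 348.5 for factor genes, beside 154.6 and 338.2 for all bound genes. In the replicates, each on its own scale, the median was 126.3 beside 121.8 in replicate 1 and 78.4 beside 95.1 in replicate 2, so the replicates differed on which set was higher.

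**Figure D2:**
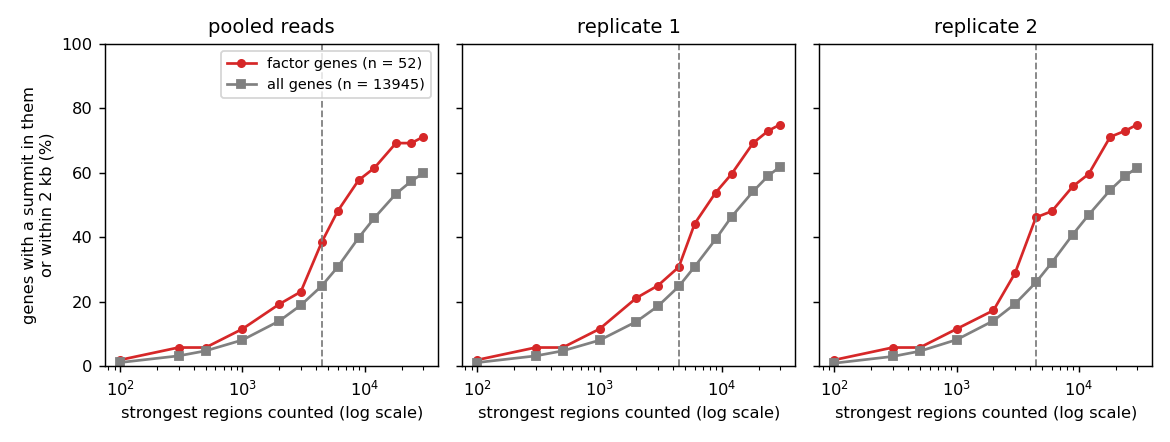
Percent of factor genes (red, n = 52) and of all protein-coding genes (grey, n = 13945) with a summit in the gene or within 2 kb, against the number of strongest regions counted (log axis), in the pooled list and each replicate. The dashed line marks 4447 regions; in the pooled list the red line leaves the grey line mainly between 3000 and 6000 regions, where it goes from 23.1% to 48.1%.

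The 20 bound factor genes had 30 distinct IDR regions, 1 of them shared by eIF2alpha and eIF4H1. Of these 30 summits, 25 (83.3%) lay at a promoter, within 500 bp of the start site of some gene, beside 36.9% of the IDR list, and the other 5 lay in introns of the long genes eIF4EHP and eIF5B. Of IDR summits in or within 2 kb of any gene 41.8% were at a promoter. At genes under 5 kb the share was 66.5%, beside 20 of 20 summits at the factor genes under 5 kb. The strongest summit of each of the 20 genes was at a promoter in 20 cases, with no such share given over all bound genes. The promoter was the factor gene's own in 11 cases, at a median of 125 bp from the start site, and closer to another gene's start in 9. The 11 include eIF4G2, where a start of CG33111 was equally near. Counting any summit, the own start site was nearest at 55% of the bound factor genes, beside 60.3% of all 3470 bound genes. By median signal the 9 summits nearest to another gene were the stronger, at 222.4 against 173.7 for the 11 nearest to the factor gene itself. For those 9 the lists do not say which gene the binding belongs to.

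**Figure D3:**
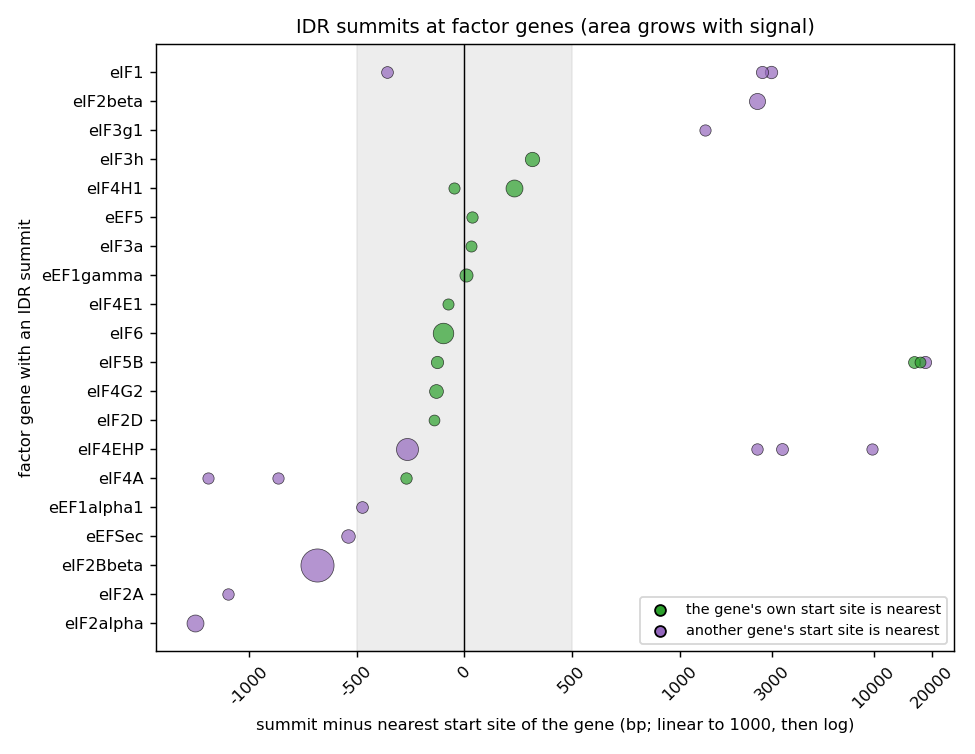
Position of each IDR summit of the 20 bound factor genes relative to the gene's nearest annotated start site, in bp (linear to 1000, then logarithmic; positive is into the transcript), with area growing with signal. Green points are nearest to the factor gene's own start site and purple points to another gene's; the grey band spans 500 bp on each side, and the largest point, at eIF2Bbeta, lies 686 bp upstream of it and is purple.

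Exchange factor eIF2B, which reloads eIF2 with GTP, had 1 of its 5 subunit genes bound, beside 24.9% of all genes, and that gene carried the strongest summit of all factor genes. At eIF2Bbeta the region chrX:2703678-2704070 had a signal of 1624 in the pooled list, 841 in replicate 1 and 784 in replicate 2. It ranked 4, 6 and 12 in these lists, near the top in all of them. Its summit lay 686 bp upstream of eIF2Bbeta and 33 bp from the start site of Ugalt, a UDP-galactose transporter gene, which was the nearer gene. The catalytic subunit gene eIF2Bepsilon missed the IDR list at pooled rank 5009 with a signal of 111.0, and ranked 4704 and 6461 in the replicates. Its nearest start site was that of Ocrl, a phosphoinositide phosphatase gene. For eIF2Bgamma the best pooled rank was 6751 and for eIF2Bdelta 14702, whereas eIF2Balpha had no region in any of the relaxed lists.

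Initiator tRNA delivery had 4 of 5 genes bound within 2 kb, beside 24.9% of all genes. A summit within 500 bp of an own start site was found at 1 of the 5, beside 12.1% of all genes. The subunit gene eIF2alpha, whose product is phosphorylated under stress, shared the region chrX:16448838-16449113 with eIF4H1. The signal there was 380.7 in the pooled list, 218 in replicate 1 and 162 in replicate 2, at ranks 549, 576 and 615. The summit lay 1902 bp upstream of eIF2alpha and 230 bp inside eIF4H1, so the start site of eIF4H1 was the nearest. At eIF2beta, the subunit that contacts eIF5, the region chr3L:12524151-12524379 had signals of 338, 205 and 128 in the pooled list, replicate 1 and replicate 2. It ranked 731, 662 and 1028, but lay 852 bp beyond the 3′ end of the gene and 186 bp from the start site of ver, a telomere-capping gene. Neither of these strong regions was thus nearest to an eIF2 gene. The third subunit gene, eIF2gamma, reached only pooled rank 17543.

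The alternative initiator tRNA carriers eIF2A and eIF2D were bound near the lower end of the list. For eIF2A the region chr3L:21823236-21823675 had signals of 142, 78.7 and 66.6 and ranks of 3403, 3638 and 3457, steady across the lists. It lay 1284 bp upstream of the gene and 5 bp from the start of CG7407. For eIF2D the region chr3R:29151714-29152153 had signals of 121, 66.9 and 58.5, at ranks 4401, 4780 and 4326. This was the weakest call among the 20 genes and was just outside the strongest 4447 of replicate 1, but its summit was 140 bp upstream of eIF2D itself, with no nearer start site. The gene just outside the list was eIF3d1, a subunit of eIF3, at rank 4516 with a signal of 118.5, ranked 8939 in replicate 1 and 3421 in replicate 2, and nearest to the start of GILT2.

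Start-site selection was represented by eIF1, eIF1A and eIF5, of which eIF1 was bound, beside 24.9% of all genes. eIF1, which keeps the ribosome open while it scans, had 3 IDR summits. The strongest, in chr3L:3226220-3226521, had signals of 179, 104 and 76.6 at ranks 2311, 2275 and 2687, and lay 1642 bp beyond the end of eIF1 and 239 bp from a start of Larp4B. A second, with a pooled signal of 171, lay 55 bp from a start of Larp4B, an RNA-binding protein gene. The third, at 357 bp upstream of eIF1 with a pooled signal of 153, lay 24 bp from the start of the ribosomal protein gene RpL28, which starts on the opposite strand from eIF1. None of the 3 was nearest to eIF1. Its partner eIF1A came close to the list, at pooled rank 4781 with a signal of 114.5, and ranked 7257 in replicate 1 and 3504 in replicate 2, in an intron 734 bp from its own start. The GTPase-activating factor eIF5 had a best pooled rank of 11087.

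The eIF3 scaffold, the largest factor, had 3 of 16 genes bound (18.8%), beside 24.9% of all genes. The strongest was eIF3h, with signals of 258, 122 and 131 in chr2L:5052345-5052551 at ranks 1248, 1736 and 973. Its summit lay 314 bp into the gene from the nearest start site, which was its own. For eIF3g1, an RNA-binding subunit, the region chrX:2608771-2609210 had signals of 136, 58.6 and 75 at ranks 3664, 5929 and 2810. It lay 256 bp beyond the 3′ end and 115 bp from the start of Smyd3, and was in the strongest regions of replicate 2 and not of replicate 1. For eIF3a, the core subunit whose promoter is printed among the 4 sequences, the region chr3R:4433646-4434085 had signals of 129, 64.2 and 59.0. Its ranks were 3939 in the pooled list, 5102 in replicate 1 and 4261 in replicate 2, with the summit 29 bp inside the gene in the pooled list.

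The remaining eIF3 genes lay below the threshold or lacked regions. After eIF3d1 came eIF3l at pooled rank 5249 with a signal of 108, ranked 7411 and 4325 in the replicates and nearest to Nrx-IV, a septate junction gene. Further down were eIF3b at 8304, eIF3j at 10453 and eIF3m at 17618. In the relaxed replicate lists alone there were regions at eIF3c, eIF3f1, eIF3i and eIF3k, and eIF3e had no region in any list. In all, 8 of the 16 eIF3 genes had a region in the relaxed pooled list, a share near the 59.8% of all genes.

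Cap binding and unwinding by eIF4 was represented by 13 genes, of which 5 (38.5%) were bound, beside 24.9% of all genes. The strongest was eIF4EHP, a cap-binding protein that represses translation of messengers such as caudal in the early embryo. Its region chr3R:24108985-24109403 had signals of 682 in the pooled list, 382 in replicate 1 and 309 in replicate 2, at ranks 117, 117 and 108. The ranks were nearly equal in all 3 lists. The summit lay 266 bp upstream of eIF4EHP and 110 bp from the divergent start of CG18428. Within this long gene 3 weaker summits had pooled signals of 159, 142 and 136, the first of them 164 bp from a start of the embedded gene Syx1A, a syntaxin.

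The helicase cofactor eIF4H1 carried the region shared with eIF2alpha, and a second summit in chrX:16448879-16449113 with a pooled signal of 133 and rank 3798. That second summit, 49 bp before the second eIF4H1 start, overlapped the first region, and the replicate lists held a single region there. At eIF4G2, a scaffold homologue needed in the male germ line, the region chr3R:23818728-23819167 had signals of 232, 123 and 102 at ranks 1484, 1700 and 1569. Its summit lay 129 bp before an internal start of the gene, at the same distance from a start of the overlapping gene CG33111. The general scaffold gene eIF4G1, on chromosome 4, reached only pooled rank 14575 with a signal of 52.6, so in this pair the germ-line copy was the bound one.

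The helicase gene eIF4A had 3 weak summits. The strongest, in chr2L:5981874-5982313, had signals of 141, 86.2 and 53.4 at ranks 3427, 3153 and 5071, and lay 269 bp before an internal start of eIF4A. The others, with pooled signals of 137 and 135, lay 121 bp and 46 bp from starts of the neighbouring profilin gene chic. In replicate 2 it was the last of these that ranked highest, at 1977, and in replicate 1 it ranked 7921. For the cap-binding protein gene eIF4E1 the region chr3L:9401662-9402101 had signals of 131, 68.5 and 71.7 at ranks 3897, 4622 and 3061. Its summit lay 77 bp before one of 4 annotated starts of eIF4E1, in the promoter printed earlier.

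Subunit joining had both of its 2 genes bound, beside 24.9% of all genes. eIF5B is long, and of all genes of 5 kb or longer 44.3% were bound. eIF6, which keeps the large subunit from joining early, had signals of 585 in the pooled list, 315 in replicate 1 and 271 in replicate 2 in chr2R:23850257-23850535. The ranks were 191, 235 and 176, the highest of any factor gene whose own start site was the nearest. Its summit lay 100 bp upstream of eIF6 and inside the gene ytr. The joining GTPase gene eIF5B had signals of 174, 95.4 and 77.3 in chr3L:3460508-3460947 at ranks 2430, 2662 and 2647, with the summit 125 bp before an internal start. A further 3 summits lay deep in its introns, between 16140 and 18355 bp from that start, with pooled signals of 170.3, 157 and 123.

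Elongation factor genes were bound in 4 of 8 cases, beside 24.9% of all genes. eEFSec, the selenocysteine-specific factor, ranked highest, with signals of 222, 142 and 83.7 in chr2R:21386540-21386979 at ranks 1598, 1342 and 2287. The summit lay 539 bp upstream of it and 134 bp from the start of Acox57D-p, a peroxisomal oxidase gene. At eEF1gamma, a subunit of the exchange complex of eEF1, the region chr3R:29219960-29220399 had signals of 205, 123 and 76.3 at ranks 1821, 1718 and 2714. Its summit, 8 bp inside the gene, was the closest to an own start site among the 20 genes. In replicate 1 the summit fell on the same base as in the pooled list.

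The tRNA carrier eEF1alpha1 had signals of 151, 103 and 48.4 in chr2R:11890442-11890881 at ranks 3064, 2324 and 6005, so that its call rested on replicate 1. Its summit lay 473 bp upstream of the gene and 317 bp from a start of ERp60, a protein disulfide isomerase gene. eEF5, the homologue of eIF5A that carries hypusine and eases peptide bond formation, had signals of 138, 79.5 and 60.7 in chr2R:24057670-24058109. Its ranks of 3564, 3588 and 4046 were within the strongest regions of both replicates, and its summit lay 37 bp inside the gene from its nearest start. The translocase gene eEF2 missed the list at pooled rank 5069 with a signal of 110.3, ranking 6508 in replicate 1 and 2483 in replicate 2, with the nearest start that of CG2225. Of the other unbound elongation genes, eEF1alpha2 reached rank 6062, eEF1delta 7128 and eEF1beta 7192. All 8 elongation genes had a region in the relaxed pooled list, beside 59.8% of all genes.

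Further copies of a factor gene, several of them known for expression in the male germ line, were counted apart. Of 11 such copies (eIF3d2, eIF3f2, eIF3g2, eIF4H2, eIF4G2, eEF1alpha2 and eIF4E3 to eIF4E7), eIF4G2 was bound, beside 24.9% of all genes, and 8 had no region in any list. eIF3g2, eIF4H2 and eIF4E3 to eIF4E6, the copies of the bound eIF3g1, eIF4H1 and eIF4E1, were among those 8. eIF4E7 reached only pooled rank 26705, with a signal of 30.8. Of the other 41 factor genes, among which the cap-binding gene eIF4EHP was counted, 19 (46.3%) were bound. The difference between copies and other factor genes was not tested. In total 17 of the 32 unbound factor genes had a region in the relaxed pooled list, which reached 59.8% of all genes, and 10 of them within rank 8894. The 11 genes with no region in any list were these 8 copies with eIF2Balpha, eIF3e and eIF4B. How many of all genes have no region in any list is not given here, so whether these counts are unusual cannot be said. eIF4B lies 4964 kb beyond the last IDR summit of arm 3L, and the last summit of the relaxed pooled list on that arm also lies before it.

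The replicates supported the 30 regions to differing degrees. By an overlap of at least 1 bp, 24 of 30 regions (80%) met a region of the strongest 4447 of replicate 1, beside 87.9% of the IDR list, and 25 of 30 (83.3%) met one of replicate 2, beside 85.6%. With the summits required to be within 100 bp the counts were 23 (76.7%) and 22 (73.3%), beside 84.2% and 79.9% of the IDR list. Every one of the 30 overlapped a region of both relaxed lists, at worst at rank 7921 in replicate 1 and 6295 in replicate 2. So did 99.9% and 99.7% of the whole IDR list, which was made from the relaxed lists, so this overlap is no separate support. Across the 30 regions, which are not independent and share the 2 libraries, Spearman's rho between the replicates' signals was 0.56. Of the 20 bound genes, 15 were bound in both replicates, and eEF1alpha1, eIF4E1, eIF3a, eIF2D and eIF3g1 in 1 of the 2. No share over all bound genes stands beside this count. Those 5 genes had a pooled signal of 151 or less.

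Promoter sequence was described by 8 words, counted on both strands from 250 bases before to 50 after the most upstream start site. ATCGAT, the core of the element read by the boundary and promoter factor DREF, stood out, with 24 of 52 factor promoters (46.2%) beside 23.3% of all promoters and 40.9% of 93 cytosolic ribosomal protein promoters. It was in 11 of the 20 bound factor promoters (55%), beside 26.0% of all bound genes, and in 13 of the 32 unbound ones (40.6%). Among the bound genes that carried it were eIF2Bbeta, eIF6, eIF2alpha and eEF1gamma. GAGAGA, a word of the GAGA factor, was in 1 factor promoter (1.92%), that of eIF3g2, beside 12.3% of all promoters. With every annotated start site searched it was in 6, beside 17.1% of all genes.

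The homeodomain words were counted in the same windows. TAATTA was in 14 factor promoters (26.9%), beside 20.4% of all, and in 4 of the 20 bound ones (20%), beside 18.4% of all bound genes. CAATTA was in 14 (26.9%) as well, beside 25.2%, and in 8 of the 20 bound promoters (40%), beside 21.5% of all bound genes. From 100 bases before to 50 after the start, CAATTA was in 5 of the 20 (25%), beside 7.29% of all bound genes. TAATTA was in 0 of the 20 in that shorter window, beside 5.27% of all bound genes. Over all 52 factor promoters the shorter window held CAATTA in 6 (11.5%), beside 10.2% of all genes, and TAATTA in 0, beside 6.88%. The E-box CACGTG was in 4 (7.69%), beside 4.20%, and GGTCACAC, the core of the promoter word known as motif 1, in 6 (11.5%), beside 7.70%. TATAAA was in 23 (44.2%), beside 45.8%. A polypyrimidine initiator, searched as CTTT on the gene's strand with its C within 3 bases of the start, was in 0 factor promoters, beside 3.24% of all and 11.8% of ribosomal protein promoters. With every annotated start site searched it was in 1 factor gene, beside 33.3% of ribosomal protein genes. Start sites are as annotated and not measured in these embryos, and a match is a description of letters only.

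**Figure D4:**
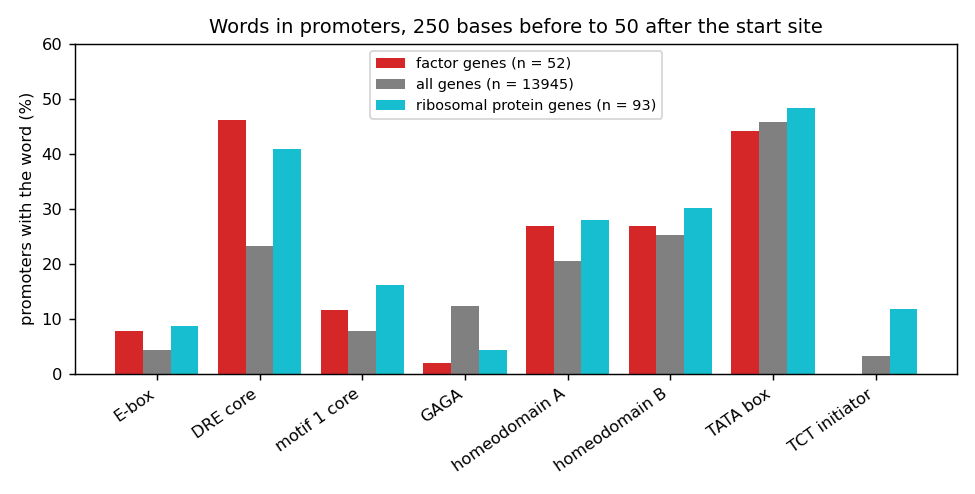
Percent of promoters that hold each searched word, in 52 factor genes (red), all 13945 genes (grey) and 93 cytosolic ribosomal protein genes (cyan), from 250 bases before to 50 after the start site; homeodomain A and B are the words ending in the same 4 letters and beginning with TA and CA. The red bar is highest above the grey one for the DRE core, at 46.2% against 23.3%, and no red bar is drawn for the initiator, which had 0 factor promoters.

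Around the summits themselves, within 100 bp on each side, ATCGAT was in 4 of the 30 factor regions (13.3%), beside 4.45% of the IDR list. CAATTA was in 5 (16.7%), beside 15.9%, GAGAGA in 5 (16.7%), beside 16.3%, and TAATTA in 2 (6.67%), beside 13.6%. TATAAA was in 8 (26.7%), beside 30.1%, and CACGTG and GGTCACAC were in 0. Only ATCGAT of the 7 words had a share more than 1.5 times its share in the IDR list. The 2 sets differ in location, with 83.3% of the factor summits at a promoter, beside 36.9% of the IDR list. Promoter summits were not compared on their own, so a difference in location cannot be told apart from a trait of factor regions.

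Other genes of the translation machinery were called in the same way. Of 17 regulators of initiation 9 (52.9%) were bound, beside 24.9% of all genes. Replicate 1 gave 52.9%, beside 24.7% of all genes, and replicate 2 gave 47.1%, beside 26%. They included larp, which binds messengers of the translation machinery, at signal 1702 and rank 2, and Lk6, the kinase of eIF4E, at 1142 and rank 20. Thor, the 4E-binding protein that holds eIF4E1 inactive, had a summit 25 bp from its start with a signal of 176. PPP1R15, which directs dephosphorylation of eIF2alpha, had 506, though the start of Sox14 was nearest, and the poly(A)-binding protein gene pAbp had 276. The other 4 bound regulators, S6k, Paip2, cup and crc, lay between 129 and 192. Of these, the cup summit was nearest to a start of Spn27A and the crc summit to a start of Mondo. A summit within 500 bp of an own start was found at 2 of the 17 regulators (11.8%), near the 12.1% of all genes, beside 14 of the 52 factor genes (26.9%).

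Cytosolic tRNA synthetase genes were bound in 5 of 20 cases (25%), beside 24.9% of all genes, at 30% and 25% in the replicates, led by AlaRS at 647, where CG13390 was nearest, and SerRS, at 209 with the summit 3 bp from its own start. Termination and recycling genes were bound in 2 of 5 cases, beside 24.9% of all genes, with 0% in replicate 1 and 40% in replicate 2. The 2 were pelo at 173, where CG31710 was nearest, and HBS1 at 129, where Rap1 was nearest. An IDR summit within 500 bp of an own start site was found at 0 of the 5, beside 12.1% of all genes. Of 9 mitochondrial translation factor genes mIF2 alone was bound (11.1%), beside 24.9% of all genes, at 147 and 11 bp from its start. The share was 11.1% in each replicate, beside 24.7% and 26% of all genes. Of the 93 genes for cytosolic ribosomal proteins, 50 (53.8%) were bound, beside 24.9% of all genes. Replicate 1 gave 53.8%, beside 24.7%, and replicate 2 gave 58.1%, beside 26%. Within this list 47 (50.5%) had a summit within 500 bp of an own start site, beside 26.9% of factor genes and 12.1% of all genes. The median highest signal of the bound ribosomal protein genes, 181.8, was close to the 191.7 of the factor genes.

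**Figure D5:**
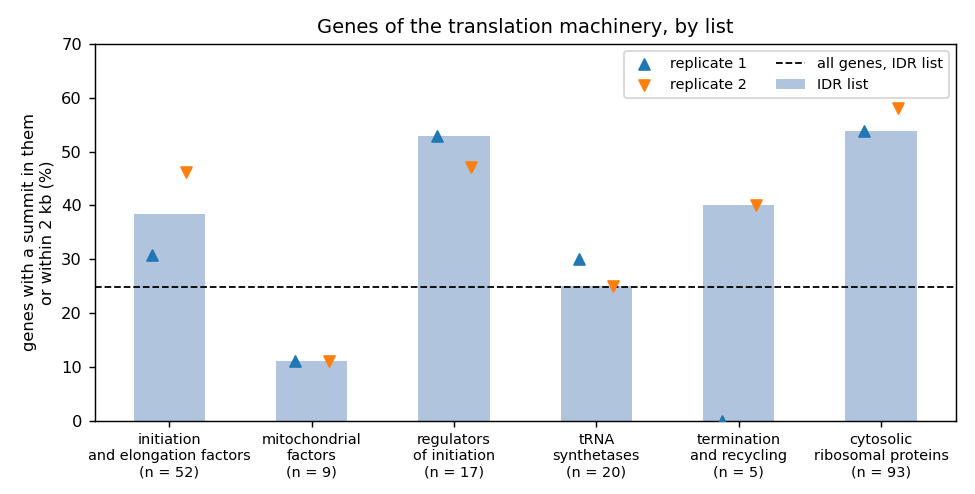
Percent of genes with a summit in them or within 2 kb, for the factor genes and 5 other lists of the translation machinery, in the IDR list (bars) and in the strongest 4447 regions of each replicate (triangles). The dashed line is the 24.9% of all genes; bars run from 11.1% for mitochondrial factors to 53.8% for ribosomal proteins, with the factor genes at 38.5%.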

How the data were processed

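ChIP-seq against GFP was measured in 2 replicates of bsh-GFP embryos, which the labels call separate biological replicates. Per the deposited lists, each region carries the authors' signal value, a −log10 q value and a summit on dm6. Per the files' records, relaxed lists were made from each replicate and from pooled reads, and the IDR list from these. The aligner, peak caller and IDR cut-off of the authors were not given in the sources used here. A possible control is named in the labels, which do not say whether the calls used it. Lists on dm3 were not used. Depth is unknown, because the lists hold no read numbers, so no interval is given.

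Summits were assigned to genes of Ensembl release 115, and sequences read from RefSeq Release 6, the same assembly, with Python 3.11.15, numpy 2.4.6, pandas 2.3.3 and scipy 1.17.1. Scripts were tested on simulated data. With 1 group there was no test, only counts, medians and means ± SD beside all genes. The genes and lists were chosen with earlier results of these data known. Every bound factor gene, the 5 unbound ones of best pooled rank and unbound copies are named. mEFG2 was not matched. The strongest 4447 regions of replicate 2 include 13 mitochondrial ones.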

Additional observations from a re-analysis of the deposited data

How the results depend on the processing

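The count of 20 bound factor genes was 10 (19.2%) with summits inside the gene body alone, beside 11.6% of all genes. By nearest start site it was 11 (21.2%), beside 17.2%. With the stronger 50% of the IDR list it was 10 (19.2%), beside 15.1%. With all regions of the relaxed pooled list it was 37 (71.2%), beside 59.8%. It ran from 16 (30.8%) to 24 (46.2%) with either replicate left out, beside 24.7% and 26% of all genes. The median highest signal of 191.7 became 166 for summits inside the gene body, 189 within 1 kb and 163 within 500 bp of a start site. It was between 78.4 and 126 when 1 replicate was left out, on that replicate list's own scale. Promoters with GAGAGA numbered 0 on the gene's strand, beside 6.43% of all genes, and 6 over every annotated start site, beside 17.1%. From 100 bases before to 50 after the start, TAATTA was in 0, CAATTA in 6 and TATAAA in 13 factor promoters. The shares of all genes in that window were 6.88%, 10.2% and 23.9%. On the gene's strand CAATTA was in 5 (9.62%), beside 14.0% of all genes. The initiator was in 1 over every start site, beside 4.74% of all genes. Searching every start site was chosen after seeing the data. The cause of these changes was not tested beyond the smaller or larger number of regions, genes or bases that each setting admits. Of single-gene signals, those of eIF1 within 1 kb (153) and of eIF4EHP inside the gene body (159) moved. No paired analysis was possible because 1 group leaves nothing to pair. Unknown depth limits any statement on genes without a region.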
